A study of Mus musculus with 55 samples.

Results

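Heat shock proteins and the cochaperones that work with them were followed in mouse lung RNA over 10 genes: Hspa1a, Hspa1b, Hsph1, Dnajb1, Bag3, Hspb1, Hspa8, Hsp90aa1, Hspd1 and Hspe1. Members were taken by name as every probe set of the array whose annotation carried only one of these symbols, which gave 23 of 45037 probe sets. Each gene is given below by its brightest probe set, chosen on the mean of the 52 arrays used. Values are log2 expression values made by robust multiarray averaging (RMA), so a difference of 1 is a doubling of signal, and levels are not compared between probe sets.

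Lung RNA of 55 male C57BL/6 mice was hybridized to Affymetrix whole-genome mouse expression arrays, 1 array per mouse. All mice were 6 weeks old at the start and had 2 weeks on their diet before treatment. In the injection experiment, mice on the AIN-76A diet received an intraperitoneal injection 8 h before collection: dexamethasone (a synthetic glucocorticoid) with sodium arsenite (n = 5), dexamethasone alone (n = 5), sodium arsenite alone (n = 5, of which 4 were used) or saline (n = 5), with each drug at 1 mg/kg. In the chronic experiment, mice on the LRD-5001 chow or the AIN-76A diet (written LRD and AIN) received sodium arsenite for 5 weeks. LRD mice had 10 ppb in food (n = 5), none (n = 4), 10 ppb in water (n = 5, 4 used) or 100 ppb in water (n = 3), and AIN mice had 10 ppb in food (n = 5), none (n = 5), 10 ppb in water (n = 4) or 100 ppb in water (n = 4, 3 used).

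Heat shock proteins are molecular chaperones: they hold unfolded proteins, pass them between machines and return them to their folded state. When unfolded proteins accumulate in the cytosol, heat shock factor 1 is released from chaperones, forms trimers and binds heat shock elements, which are inverted repeats of a GAA unit ahead of the target genes. Arsenite, which binds thiols of proteins, is a classical inducer of this response, and glucocorticoid receptors are themselves folded by the HSP70 and HSP90 machinery that several of these genes encode.

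The stretches that hold such inverted repeats are shown because they are the element through which these genes are known to answer proteotoxic stress. RefSeq promoter windows (GRCm38.p6, 250 bases before and 50 after an annotated transcription start) were available for 8 of the 10 members; Hspa8 and Hsp90aa1 had none. The letters searched were GAANNTTC and TTCNNGAA, where N is any base; each reads the same on both strands, and capitals below mark every match.
Hspa1a, chr17:34972157-34972306, minus strand, 150 to 1 bases before the start: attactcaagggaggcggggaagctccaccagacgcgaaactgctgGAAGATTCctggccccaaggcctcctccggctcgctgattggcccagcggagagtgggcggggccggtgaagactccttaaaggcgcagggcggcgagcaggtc
Hspa1b, chr17:34959239-34959388, minus strand, 150 to 1 bases before the start: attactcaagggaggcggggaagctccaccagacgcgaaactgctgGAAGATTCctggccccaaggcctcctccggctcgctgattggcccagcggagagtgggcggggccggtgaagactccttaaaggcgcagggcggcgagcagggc
Hsph1, chr5:149636337-149636396, minus strand, 60 to 1 bases before the start: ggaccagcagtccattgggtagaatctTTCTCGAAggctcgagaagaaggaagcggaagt
Hspb1, chr5:135887789-135887848, plus strand, 130 to 71 bases before the start: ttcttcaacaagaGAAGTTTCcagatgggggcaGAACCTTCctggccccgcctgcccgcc
Hspe1, chr1:55088052-55088081, plus strand, 96 to 67 bases before the start: cggtccgTTCTAGAACCTTCCGGAAggccc
The windows of Hspa1a and Hspa1b, a pair of neighbouring genes that encode almost the same inducible HSP70, were 98.7% identical (4 of 300 positions differed). Cross-hybridization between their probe sets was not tested. The 3 matches of Hspe1 overlap each other. Hspe1 and Hspd1 lie head to head, and the same bases, read on the other strand, lie 144 to 127 bases before the second of the 2 annotated starts of Hspd1.

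At least 1 match before a start was found in 6 of the 8 members with a window: Hspa1a, Hspa1b, Hsph1, Hspb1, Hspe1 and Hspd1. None was found in the windows of Bag3 or Dnajb1, nor before the first start of Hspd1. Of all 32851 promoter windows, 12.8% held at least 1 match in the same 250 bases. A match is a run of letters and not a measured binding site.

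**Figure D1:**
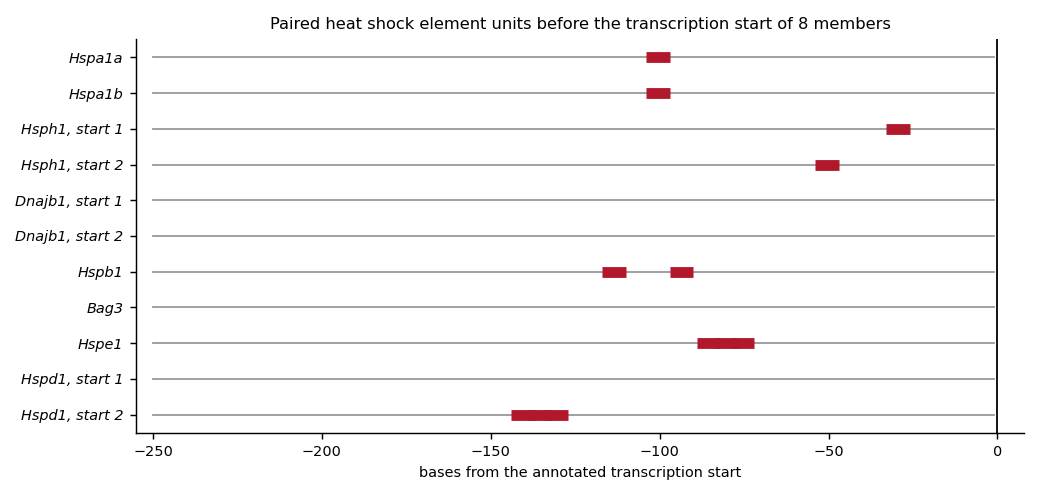
Positions of the paired GAA units (red bars) in the 250 bases before each annotated transcription start (black line at 0) of 8 members, in bases from the start. Hspa1a and Hspa1b each carry 1 match at 104 to 97 bases before the start, and Hspe1 carries 3 overlapping matches between 89 and 72.

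The 3 arrays left out (1 each of the arsenite injection, AIN 100 ppb and LRD 10 ppb water groups) had medians of 4.39 to 4.83, against 4.24 to 4.37 on the 52 arrays used, and the left-out arsenite array listed Hspa8 at 3.66, against 12.49 to 13.27 in the other 4 mice of its group. The raw file names divide the arrays into 5 sets of 11, and beside group the set had an adjusted p under 0.05 for 46.1% of all probe sets (limma F test). Dnajb1, Hspb1, Hsp90aa1, Hspa8 and Bag3 were among these (adjusted p = 0.0093, 0.0011, 0.00027, 1.7e-05 and 0.013), whereas Hspa1a, Hspa1b, Hsph1, Hspe1 and Hspd1 were not (0.055 or more). The 4 arsenite-injected mice used came from sets 2, 4, 5 and 5, with none in sets 1 and 3. Markers of alveolar type II cells, a cell type of lung epithelium, averaged 11.70 to 12.79 per mouse over all 12 groups.

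**Figure D2:**
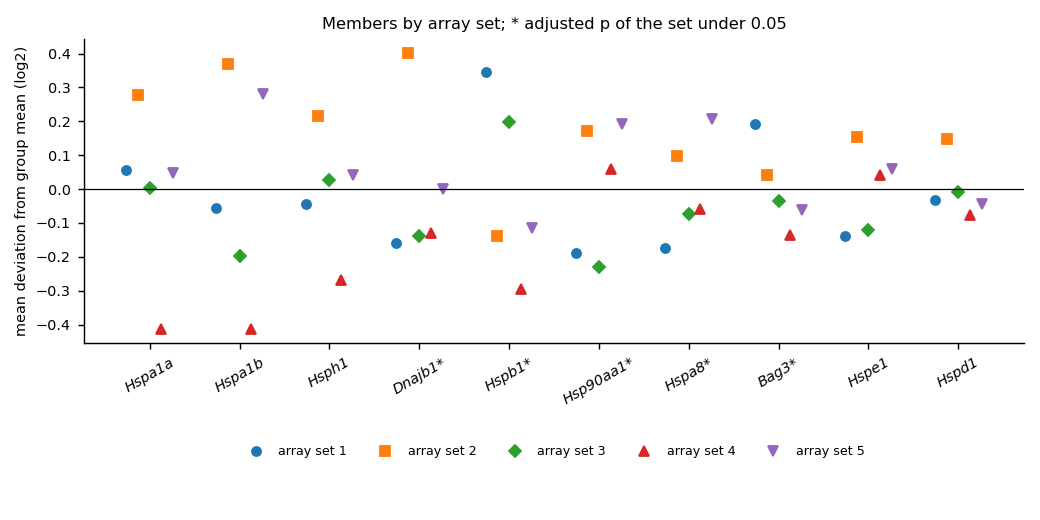
Mean deviation of each member from its group means (log2, vertical axis) in each of the 5 array sets (symbols), over the 52 mice; an asterisk marks an adjusted p of the set under 0.05. Set means of Hspb1 ran from -0.29 in set 4 to 0.35 in set 1, and those of Hsp90aa1 from -0.23 in set 3 to 0.19 in set 5.

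The members differed in how much they moved from mouse to mouse. The inducible HSP70 genes were the most variable: Hspa1a spanned 5.02 and Hspa1b 4.89 log2 units over the 52 mice, with within-group SDs of 0.95 and 0.92, larger than those of 99.6% and 99.5% of all probe sets. Hsph1, a nucleotide exchange factor that works with HSP70 in taking apart aggregates, had a within-group SD of 0.47, and Dnajb1, the J-domain cochaperone that hands clients to HSP70, had 0.44. The constitutive HSP70 Hspa8 (0.22), the mitochondrial chaperonin Hspd1 (0.22) and Bag3 (0.23), a BAG-domain exchange factor that guides HSP70 clients to autophagy, varied least on their brightest probe sets. The other Hspa8 probe sets had within-group SDs of 0.21, 0.40 and 0.75. The highest single values of Dnajb1 (11.19) and of Hspa1a and Hspa1b (10.76 and 11.70) all belonged to LRD control mouse A.

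**Figure D3:**
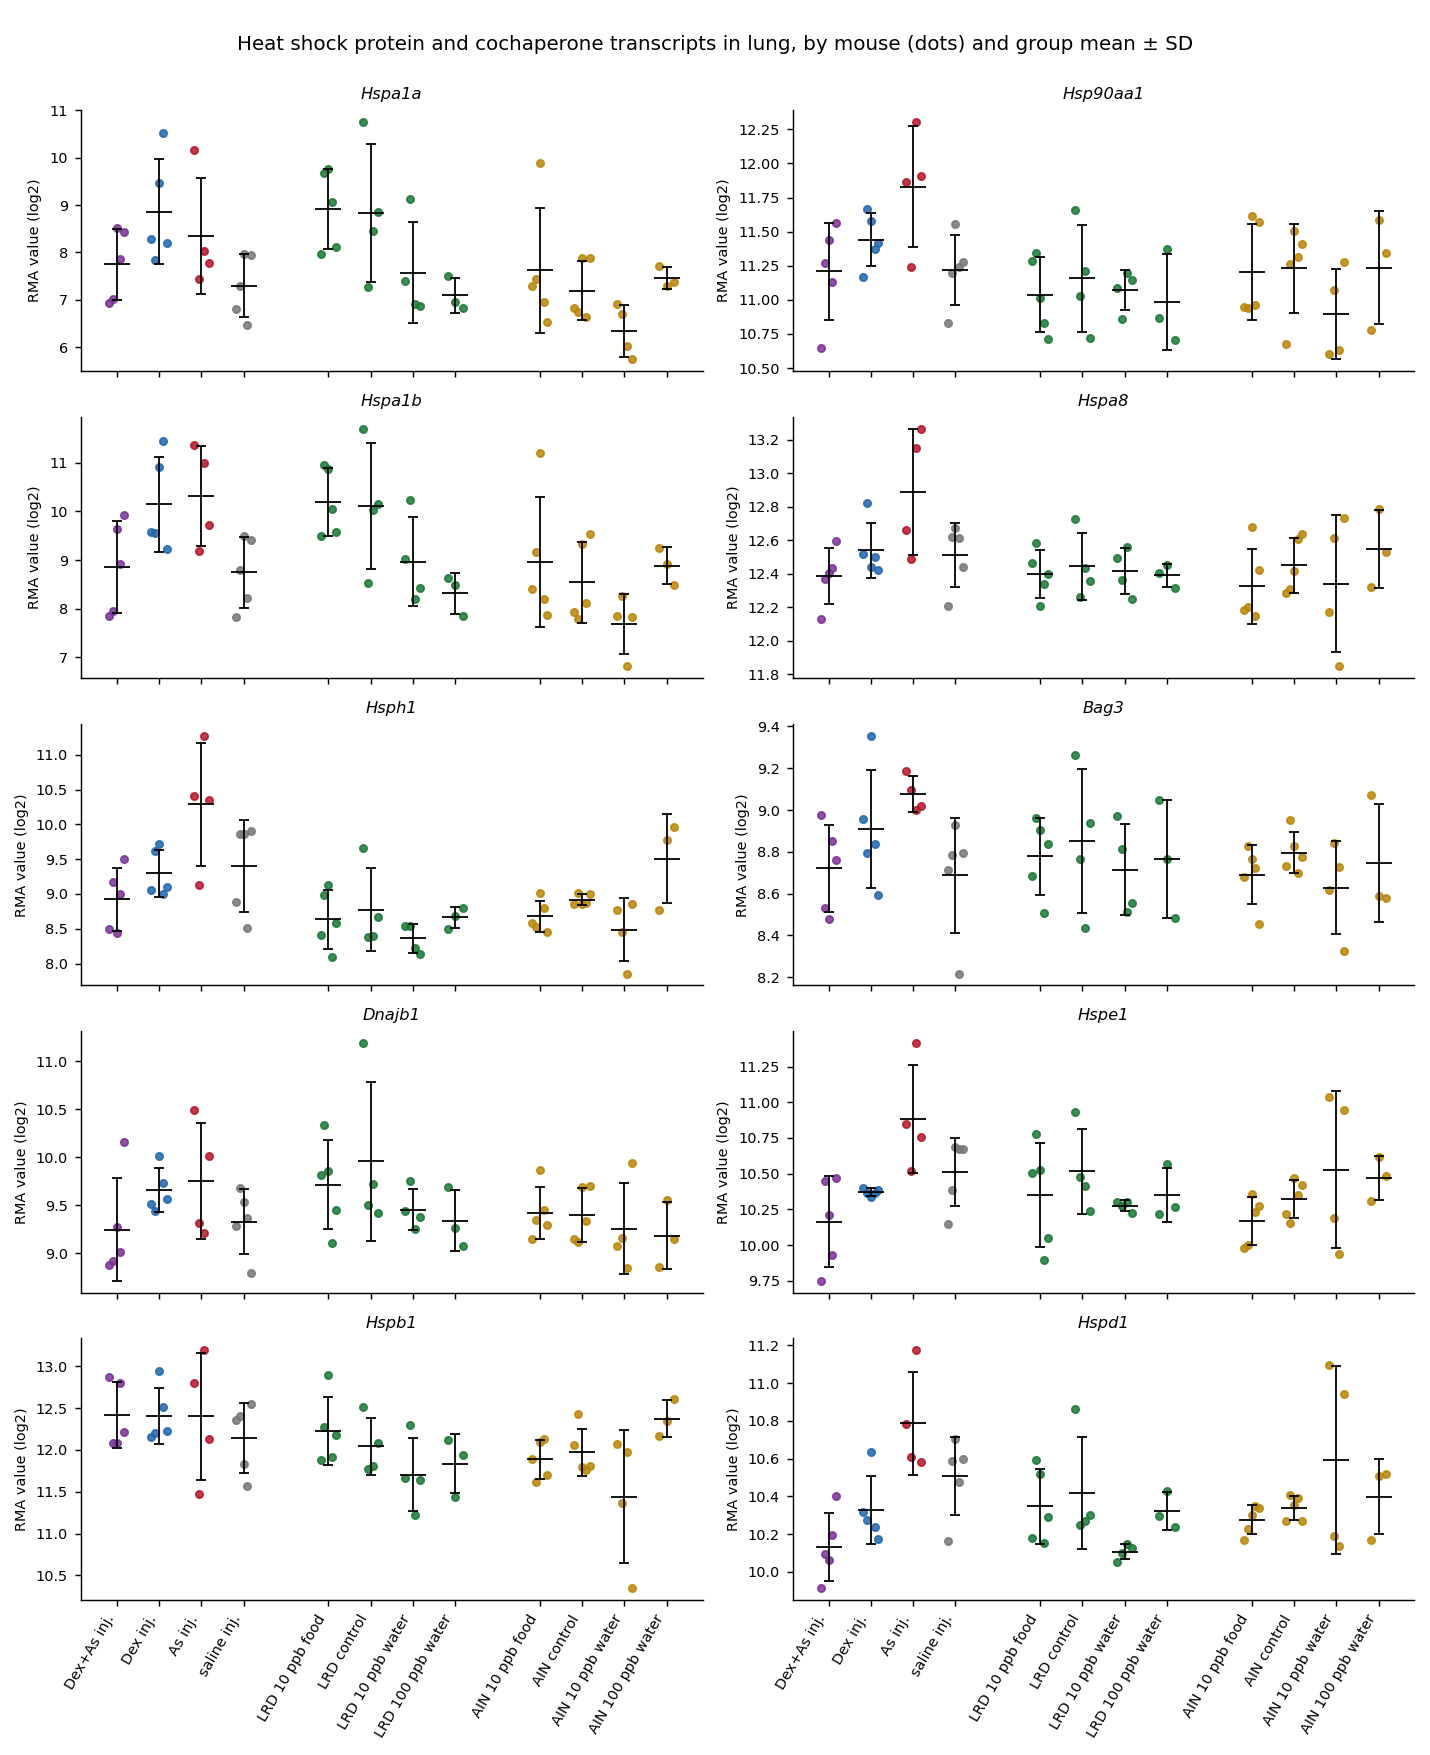
RMA values (log2, vertical axes) of the 10 members in 52 mice, with injected mice at the left (purple, dexamethasone with arsenite; blue, dexamethasone; red, arsenite; grey, saline), LRD mice in green and AIN mice in ochre. Dots are mice and black bars the group mean ± SD (n = 3 to 5); Hspd1 of mice given both drugs lies below Hspd1 of arsenite-injected mice with no overlap, and Hspa1a spreads most within groups.

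By limma, members were called in 1 of the 18 comparisons, that between mice given dexamethasone with arsenite and mice given arsenite alone, which asks what the glucocorticoid adds when arsenite is present. Hsph1, Hspd1 and Hspe1 fell (3 of 10 members at an adjusted p under 0.05), whereas 1.53% of all probe sets passed in either direction and 0.901% passed as lower. A further 4 members (Hspa1b, Hsp90aa1, Hspa8 and Bag3) had lower means with an unadjusted p under 0.05, a threshold that 5.55% of all probe sets passed as lower. In 9 of 10 members the mean was lower in mice given both drugs, and the median difference over the members was -0.61, against -0.01 over all probe sets. The rank product called 9 of 10 members and 19.3% of all probe sets.

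Hspd1 and Hspe1, the subunit and the lid of the mitochondrial chaperonin HSP60-HSP10, moved together. Hspd1 was 9.91, 10.09, 10.06, 10.19 and 10.40 in the 5 mice given both drugs, and 10.78, 10.61, 11.17 and 10.58 in the 4 arsenite-injected mice. The groups did not overlap. The difference was -0.65 (SE 0.15), or 0.64 times the level after arsenite alone (95% interval 0.52 to 0.78, adjusted p = 0.0093). Hspe1 was 9.75, 10.45, 10.21, 9.93 and 10.47 in mice given both drugs, and 10.85, 10.52, 11.41 and 10.75 after arsenite alone. The groups were again apart, by a narrow margin between 10.47 and 10.52. The difference was -0.72 (SE 0.18, adjusted p = 0.025), and the other Hspe1 probe set gave -0.74 (adjusted p = 0.070). For both genes a two-sided exact permutation test over the 9 mice gave p = 0.016, the smallest this design allows.

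Hsph1 had the largest called difference. It was 8.50, 9.17, 8.44, 8.99 and 9.50 in mice given both drugs, and 10.41, 9.12, 11.27 and 10.34 in arsenite-injected mice. Arsenite-injected mouse B, at 9.12, lay inside the range of the mice given both drugs, so the groups overlapped. The difference was -1.37 (SE 0.31), or 0.39 times the level after arsenite alone (95% interval 0.25 to 0.59, adjusted p = 0.0087, exact permutation p = 0.048). The other Hsph1 probe set gave -1.40 (adjusted p = 0.032).

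Of the inducible HSP70 genes, Hspa1b was 7.85, 7.95, 9.64, 8.92 and 9.93 in mice given both drugs, and 11.36, 9.19, 10.99 and 9.72 after arsenite alone. The ranges overlapped and the difference of -1.46 (SE 0.59) did not pass (adjusted p = 0.30). Hspa1a differed by -0.60 (SE 0.61, adjusted p = 0.88). Bag3 lay between 8.48 and 8.97 in mice given both drugs and between 9.00 and 9.19 after arsenite alone, without overlap, but its difference of -0.36 (SE 0.15) did not pass either (adjusted p = 0.33). With Hspd1 and Hspe1 it made 3 members that lay wholly lower, a pattern seen in 2.4% of all probe sets.

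None of the remaining members passed on its brightest probe set. Hspa8, the housekeeping HSP70 that also uncoats vesicles, differed by -0.50 (SE 0.15, adjusted p = 0.071), and a second Hspa8 probe set passed at -0.55 (adjusted p = 0.029). Hsp90aa1, the stress-inducible cytosolic HSP90, differed by -0.62 (SE 0.21, adjusted p = 0.16) on its brightest probe set. A dim Hsp90aa1 probe set, at a mean of 2.95 over all arrays, passed at -0.46 (adjusted p = 0.012), and 2 bright ones did not. Dnajb1 differed by -0.51 (SE 0.28, adjusted p = 0.60). Hspb1, the small heat shock protein that holds unfolded clients without using ATP, averaged 12.41 ± 0.40 in mice given both drugs and 12.40 ± 0.76 after arsenite alone (SD, n = 5 and 4), a difference of 0.01 with a 95% interval of -0.56 to 0.59.

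The 3 calls held with array set as a block (Hsph1 -1.35, Hspd1 -0.65 and Hspe1 -0.62, adjusted p = 0.0074, 0.0064 and 0.035), where 2.36% of all probe sets passed. Within the sets that hold both groups, with 1 or 2 mice of each, Hspd1 differed by -0.38 in set 2, -0.51 in set 4 and -0.82 in set 5. Hspe1 gave -0.38, -0.06 and -0.87 in these sets, and Hsph1 gave -0.91, 0.04 and -2.37. The calls rested on arsenite-injected mouse C, the highest of its group for Hsph1, Hspd1 and Hspe1. Without it none of the 10 members passed by limma (differences of these genes -1.04, -0.52 and -0.54, adjusted p = 0.13, 0.12 and 0.25). Without mouse B, 5 members passed. The share of all probe sets passing in these fits is not given here, so the counts cannot be set against it. With only the injection groups in the model, Hspd1 passed (adjusted p = 0.034) and Hspe1 and Hsph1 did not (0.058 and 0.097). Over 17 alternatives that leave the 3 arrays out, the adjusted p ran from 0.00064 to 0.13 for Hsph1, from 0.0024 to 0.12 for Hspd1 and from 0.012 to 0.25 for Hspe1.

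Blood cell markers were read in the same comparison. All 8 neutrophil markers had lower means in mice given both drugs (median -0.97, 1 called, Csf3r), and their mean level per mouse was 7.63 to 10.17 in mice given both drugs, against 8.26 to 10.15 after arsenite alone. All 5 measured B cell markers were also lower on average (median -1.22, none called), at 5.12 to 6.09 in mice given both drugs, against 6.18 to 7.02 after arsenite alone. Thymus and T cell markers averaged 4.25 to 4.40 per mouse with both drugs, against 4.44 to 4.87 after arsenite alone, and proliferation markers 4.71 to 5.177, against 5.184 to 5.62. None of these last lists had a member called. Their part in the member values was not tested. In whole lung RNA, fewer cells of a type and less RNA per cell cannot be told apart.

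**Figure D4:**
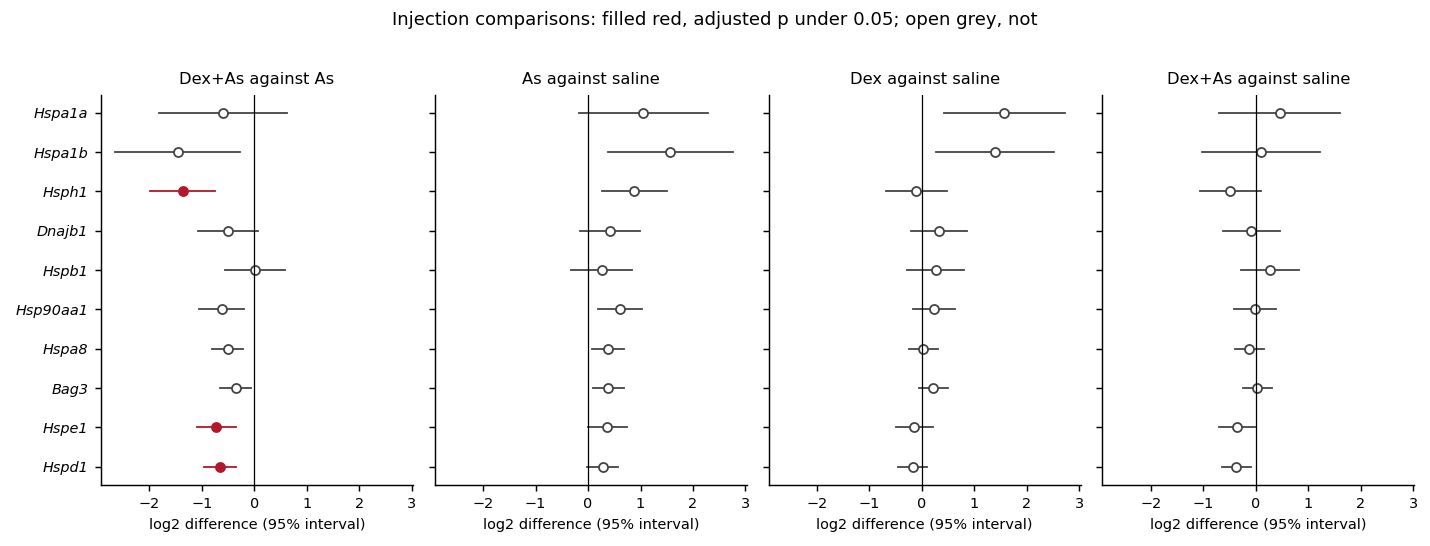
Log2 differences (points) with 95% intervals (lines) of the 10 members in 4 injection comparisons, from the model over 52 mice. Filled red points passed an adjusted p of 0.05, which only Hsph1, Hspe1 and Hspd1 did, at -1.37, -0.72 and -0.65 in mice given dexamethasone with arsenite against arsenite alone; comparisons with saline share the same 5 saline mice.

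Arsenite injection against saline asks for the acute response to the metalloid itself. All 10 members had a higher mean after arsenite (median difference 0.41, against 0.01 over all probe sets), but limma called none of them, as it called 0% of all probe sets. Of the members, 6 of 10 had an unadjusted p under 0.05 as higher (Hspa1b, Hsph1, Hsp90aa1, Hspa8, Bag3 and Hspe1), against 3.86% of all probe sets. The rank product, which counts every pair of mice as a replicate, called all 10 and 19.4% of all probe sets.

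Hspa1b was 11.36, 9.19, 10.99 and 9.72 after arsenite, and 7.84, 8.80, 9.49, 8.21 and 9.42 after saline. Arsenite-injected mouse B lay inside the saline range, and the other 3 above it. The difference was 1.57 (SE 0.59), or 2.96-fold with a 95% interval of 1.30 to 6.75 (unadjusted p = 0.011, adjusted p = 0.71). Hspa1a differed by 1.06 (SE 0.61).

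Hsph1 was 10.41, 9.12, 11.27 and 10.34 after arsenite, and 8.88, 9.87, 9.86, 8.52 and 9.90 after saline. Of the 4 arsenite-injected mice, 3 exceeded every saline mouse and mouse B did not. The difference was 0.88 (SE 0.31, 1.84-fold, adjusted p = 0.70), and 0.55 without arsenite-injected mouse C. Hsp90aa1 differed by 0.61 (SE 0.21), Hspa8 by 0.38 (SE 0.15), Hspe1 by 0.37 (SE 0.18, 0.19 without mouse C) and Hspd1 by 0.28 (SE 0.15). Bag3 was 9.19, 9.10, 9.00 and 9.02 after arsenite, and 8.71, 8.79, 8.93, 8.22 and 8.80 after saline. It was the 1 member whose groups did not overlap (difference 0.39, SE 0.15, exact permutation p = 0.016, the smallest possible), where 1.88% of all probe sets lay wholly higher.

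With array set as a block the differences were 1.45 for Hspa1b, 0.94 for Hsph1, 0.48 for Bag3, 0.36 for Hsp90aa1 and 0.24 for Hspa8, and none was called (adjusted p = 0.49 or more). Hspe1 then differed by 0.23 (unadjusted p = 0.18), Hspb1 by 0.58, against 0.26 without the block (unadjusted p = 0.021 and 0.37), and Hspd1 by 0.30 (unadjusted p = 0.047). Within set 2, 9 of 10 members were higher in the arsenite-injected mouse than in saline mouse D. Hspa8 was the exception in set 2, at -0.01. Within set 5 all 10 were higher on average in arsenite-injected mice C and F than in saline mouse E. Mice D and E were the only saline mice of these sets, and mouse E had the lowest Hspa1a, Hsph1 and Bag3 of its group. Saline mouse E also had the highest thymus and T cell markers of its group, with values given below. The part of these markers in the set 5 differences was not tested. Arsenite-injected mouse B was in set 4, which held no saline mouse. All 8 measured fat markers had lower means after arsenite (median -1.88, none called), with mean levels per mouse of 4.70 to 6.71 after arsenite, against 5.40 to 10.10 after saline. Their part in the member values was not tested.

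Dexamethasone alone against saline asks what the glucocorticoid does without arsenite, and the widest differences were those of the inducible HSP70 pair. Hspa1a was 8.28, 7.84, 9.46, 10.51 and 8.21 after dexamethasone, and 6.81, 7.28, 7.97, 6.48 and 7.94 after saline. Only dexamethasone-injected mouse B lay inside the saline range. The difference was 1.57 (SE 0.57, unadjusted p = 0.0089, adjusted p = 0.27), and with array set as a block it was 1.77 (adjusted p = 0.17). Hspa1b differed by 1.40 (SE 0.56, adjusted p = 0.36). These were 2 of 10 members with an unadjusted p under 0.05 as higher, against 3.88% of all probe sets. Hspa1a and Hspa1b encode almost the same HSP70 and had r = 0.93 with group means removed. Here and below, a count that holds both may not count independent members. Limma called none of the members, although it called 1.14% of all probe sets in this comparison, and the rank product called 6 members and 21.1% of all probe sets.

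The other 8 members differed by -0.18 (Hspd1) to 0.33 (Dnajb1) after dexamethasone. With array set as a block, Hspb1 differed by 0.51 and Bag3 by 0.27 (unadjusted p = 0.031 and 0.040). Within sets, Hspa1a differed by 1.53 in set 1, 0.30 in set 2 and 1.37 in set 5, each time between single mice. All 10 skeletal muscle and all 9 heart muscle markers also had higher means after dexamethasone (medians 0.72 and 0.69, none called). Thymus and T cell markers averaged 4.17 to 4.41 per mouse after dexamethasone, against 4.46 to 4.72 in 4 saline mice and 8.20 in saline mouse E, which also had the highest proliferation markers of the saline group (6.21). These lists had no member called, and their part in the member values was not tested.

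With both drugs against saline, Hspd1 differed by -0.37 (SE 0.14, unadjusted p = 0.010, adjusted p = 0.25) and Hspe1 by -0.35 (SE 0.17, adjusted p = 0.51). Hspa1a and Hspa1b differed by 0.46 (SE 0.57) and 0.10 (SE 0.56). Limma called none of the members and 1.26% of all probe sets, 2 of 10 members had an unadjusted p under 0.05 as lower (4.36% of all probe sets), and the rank product called 7 members and 21.5% of all probe sets. With both drugs against dexamethasone alone, Hspa1b differed by -1.29 (SE 0.56, adjusted p = 1.0) and Hspa1a by -1.11 (SE 0.57). Hspa1b alone had an unadjusted p under 0.05, as lower, where 1.16% of all probe sets did. None was called by limma, which called 0% of all probe sets, and 4 were called by the rank product, which called 14.1%.

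The interaction of the drugs, the effect of arsenite with dexamethasone minus its effect without, was negative in all 10 members (median -0.71, against -0.01 over all probe sets). It was -2.86 (SE 0.81) for Hspa1b, -2.17 (SE 0.83) for Hspa1a, -1.26 (SE 0.42) for Hsph1 and -0.84 (SE 0.29) for Hsp90aa1. An unadjusted p under 0.05 as lower was found for 9 of 10 members, against 1.79% of all probe sets, Hspb1 being the exception (-0.25, SE 0.39). With array set as a block the interaction was -0.69 (SE 0.33, unadjusted p = 0.042) for Hspb1 and -0.52 (SE 0.23) for Hsp90aa1. For Hspe1 it was then -0.40 (SE 0.24, unadjusted p = 0.097). None passed after adjustment by limma (adjusted p of Hspa1b = 1.0), and 0% of all probe sets did. All values of this paragraph use the same 4 arsenite-injected mice as the comparisons above.

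Other chaperone genes were read in the comparison of both drugs with arsenite alone, where members were called. Among 21 other cytosolic chaperones and cochaperones, 17 had lower means and 6 were called lower, with none called higher (median -0.14). The 4 with the smallest adjusted p were St13 (-0.58, SE 0.12, adjusted p = 0.0031), the HSP70-interacting protein Hip; Ahsa1 (-0.50, SE 0.11, adjusted p = 0.0083), which drives the ATPase of HSP90; Cacybp (-0.95, SE 0.22, adjusted p = 0.013), which binds Siah1; and Stip1 (-0.85, SE 0.21, adjusted p = 0.021), which bridges HSP70 and HSP90.

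Among 16 chaperones of the endoplasmic reticulum, 15 had lower means (median -0.41) and 3 were called lower: Serpinh1 (-0.98, SE 0.21, adjusted p = 0.0054), the collagen chaperone HSP47; Pdia6 (-0.75, SE 0.16, adjusted p = 0.0059), a disulfide isomerase; and Creld2 (-0.60, SE 0.15, adjusted p = 0.029). All 8 subunits of the cytosolic chaperonin CCT had lower means (median -0.28) with none called. Of 6 other mitochondrial chaperones and proteases, 3 were higher and 3 lower on average (median -0.04) with none called. Among these, Hspa9, the mitochondrial HSP70, differed by -0.29 (SE 0.18, adjusted p = 0.68). Of 5 other small heat shock proteins, 4 had higher means and none was called. Of 9 measured arsenite responsive genes, 6 had higher and 3 lower means in mice given both drugs than after arsenite alone (median 0.16), with none called. Among them, the metallothioneins Mt1 and Mt2, which bind metals, differed by 1.13 and 1.28 (SE 0.40 and 0.41, adjusted p = 0.18 and 0.12), and differed by -1.03 and -1.04 between arsenite and saline (adjusted p = 0.72 for each).

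In the chronic experiment no member was called by limma in any comparison with the control of its diet, and neither was any probe set (0% in each). The largest values again came from Hspa1a and Hspa1b. Averaged over the 4 groups of each diet, Hspa1a was 8.11 on LRD (16 mice) and 7.15 on AIN (17 mice), a difference of 0.95 (SE 0.32, unadjusted p = 0.0049, adjusted p = 0.77). Hspa1b was 9.39 on LRD and 8.52 on AIN, a difference of 0.88 (SE 0.31, adjusted p = 0.86). These were 2 of 10 members with an unadjusted p under 0.05 as higher (2.66% of all probe sets), while limma called 0.153% of all probe sets between the diets. By array set, Hspa1a was higher on LRD in sets 1, 2, 3 and 4 (1.85, 2.32, 1.19 and 0.45) and lower in set 5 (-0.999). Each set mixes exposures and holds few mice. The LRD mice of set 5 all had 10 ppb in water, and its AIN mice included food mouse D at 9.88. Set 2 included LRD control mouse A at 10.76.

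Hspa1a is given for each of the 33 chronic mice. It was 7.96, 9.68, 9.77, 9.06 and 8.12 in LRD mice with 10 ppb in food. It was 10.76, 7.26, 8.46 and 8.86 in LRD controls, 7.40, 9.13, 6.90 and 6.87 at 10 ppb in water, and 7.51, 6.94 and 6.83 at 100 ppb in water. In AIN mice it was 7.29, 7.44, 9.88, 6.94 and 6.53 with 10 ppb in food. AIN controls had 6.82, 6.75, 7.87, 6.64 and 7.88, and AIN mice had 6.92, 6.69, 6.03 and 5.74 at 10 ppb and 7.72, 7.30 and 7.37 at 100 ppb in water. Each LRD group overlapped the AIN group of the same exposure.

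Among LRD mice, 100 ppb in water against control gave -1.74 (SE 0.69) for Hspa1a and -1.79 (SE 0.67) for Hspa1b (unadjusted p = 0.015 and 0.011, adjusted p = 1.0 for each). They were 2 of 10 members with an unadjusted p under 0.05 as lower, against 1.46% of all probe sets, and the exact permutation p was 0.11 for each (the smallest possible is 0.057). Without LRD control mouse A the differences were -1.10 and -1.25. Hspd1 at 10 ppb in LRD water was 10.05, 10.10, 10.15 and 10.13, against 10.86, 10.25, 10.27 and 10.30 in LRD controls, without overlap (difference -0.31, SE 0.15, adjusted p = 1.0), a pattern that 1.21% of all probe sets showed. The difference was -0.17 without LRD control mouse A. Hspa1a and Hspa1b differed by -1.26 (SE 0.64) and -1.13 (SE 0.62). Hspd1 alone had an unadjusted p under 0.05, as lower, where 2.33% of all probe sets did. With array set as a block Hspa1a (-1.54), Hspa1b (-1.53) and Dnajb1 (-0.60) did too (unadjusted p = 0.031, 0.022 and 0.035, adjusted p = 1.0 for each). Only set 2 held mice of both groups, and its LRD control was mouse A, which had the highest values of these genes. Arsenite in LRD food differed from control by 0.08 (SE 0.61) for Hspa1a, and no member had an unadjusted p under 0.05 (2.5% of all probe sets did). The rank product called 6, 3 and 4 members at 10 ppb water, 100 ppb water and 10 ppb food, against 11.6%, 9.42% and 12.4% of all probe sets.

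Among AIN mice, no member had an unadjusted p under 0.05 by limma against control, whereas 13.8%, 2.08% and 2.28% of all probe sets did at 10 ppb water, 100 ppb water and 10 ppb food. The rank product called 5, 4 and 3 members in these comparisons, and 18.7%, 11.0% and 16.6% of all probe sets. At 10 ppb in water Hspa1a and Hspa1b each differed by -0.85 (SE 0.61 and 0.59), Hspb1 by -0.53 (SE 0.29, and -0.61 with array set as a block, unadjusted p = 0.011) and Hspd1 by 0.25 (SE 0.15). Water mouse E had the lowest Hspb1 of its group, 10.35, against a mean of 11.81 in the other mice of the group. Hspb1 of AIN controls lay between 11.755 and 12.436. Hspd1 of the mice at 10 ppb in water fell into a high and a low pair, 11.10 and 10.94 in mice A and E and 10.19 and 10.14 in mice C and D, against 10.27, 10.41, 10.35, 10.39 and 10.27 in AIN controls. Hspe1 divided the same mice, at 11.04 and 10.95 in A and E and 10.19 and 9.94 in C and D. Mice A and E were also the 2 with the highest fat markers of their group, at 10.73 and 9.09 as the mean of 8 measured genes. Mice C and D had 5.83 and 5.87 on this list, and the AIN controls lay between 5.11 and 6.79. Mouse E had thymus and T cell markers at 9.94, against 4.66 to 4.74 in AIN controls. The part of these markers in the Hspd1, Hspe1 and Hspb1 values was not tested.

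At 100 ppb in AIN water Hsph1 differed by 0.58 (SE 0.33) and Hspb1 by 0.40 (SE 0.31), and with 10 ppb in food Hspa1a differed by 0.43 (SE 0.57). Without food mouse D the food mean of Hspa1a was 7.05, against 7.19 in AIN controls, which turns the sign. Saline-injected against uninjected AIN mice gave 0.49 (SE 0.29, adjusted p = 1.0) for Hsph1 and between -0.11 and 0.21 for the other 9 members. The AIN controls belonged to the 5-week experiment, and the saline mice were collected 8 h after injection. Injection cannot be told apart here from the other differences between the 2 experiments. Limma called none of the members and 0.00222% of all probe sets, none of the members had an unadjusted p under 0.05 (4.09% of all probe sets did), and the rank product called 5 members and 19.9% of all probe sets. In the comparison of 10 ppb in food with 10 ppb in water on AIN, Hspa1a and Hspa1b differed by 1.27 and 1.28 (SE 0.61 and 0.59, adjusted p = 0.33 and 0.31), and Hspd1 by -0.31 (SE 0.15, adjusted p = 0.32). Unadjusted p was under 0.05 for these 2 members as higher and this 1 as lower, against 8.74% and 5.39% of all probe sets. Without food mouse D, Hspa1a and Hspa1b differed by 0.71 and 0.72, and without water mouse A or E, Hspd1 differed by -0.15 or -0.20. The rank product called 5 members and 18.4% of all probe sets there. The diet interactions at 10 ppb in water, 100 ppb in water and 10 ppb in food called no member by limma, and 0% of all probe sets. At 10 ppb in water the interaction was -0.57 (SE 0.21, adjusted p = 0.36) for Hspd1, the 1 member with an unadjusted p under 0.05, as lower (5.32% of all probe sets), and with food no member had one (2.04% of all probe sets did). At 100 ppb the interaction was -2.01 (SE 0.96) for Hspa1a and -2.13 (SE 0.93) for Hspa1b, 2 of 10 members with an unadjusted p under 0.05 as lower, against 1.31% of all probe sets.

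Pairs of members were also compared from mouse to mouse within groups. With group means removed, 28 of 45 pairs of members passed a permutation test within groups (100000 permutations, Benjamini-Hochberg over 45 pairs). All of these were positive, and the median r over the 45 pairs was 0.43. Pairs of other genes were not put through this test, so the share of all gene pairs that would pass is not known. Hspa1a and Hspa1b had r = 0.93 (rho = 0.91, adjusted permutation p = 0.00011, r = 0.91 without the 2 farthest mice). Hspd1 and Hspe1, which share a start region, had r = 0.80 (rho = 0.72, adjusted permutation p = 0.00011, 0.76 without the 2 farthest mice). Hsp90aa1 and Hspa8 had r = 0.75 (rho = 0.76, adjusted permutation p = 0.00011), and Hsph1 and Hspd1 had r = 0.73 (rho = 0.77, adjusted permutation p = 0.00011).

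Array set moved some of these pairs. With set and group removed, Hspd1 and Hspe1 had r = 0.89 and Hsp90aa1 and Hspa8 had r = 0.65. Hspb1 and Hsp90aa1 had r = -0.10 with group means removed and 0.49 once the set was removed too. Dnajb1 went with the inducible pair (r = 0.59 with Hspa1b and 0.57 with Hspa1a), and Bag3 was closest to Hspb1 (r = 0.49), whereas with set removed it was closest to Hspa1b and Hspa1a (r = 0.43 each) and had r = 0.34 with Hspb1. Bag3 had r between -0.13 and -0.11 with Hspa8, Hspe1 and Hsp90aa1, none of which passed.

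**Figure D5:**
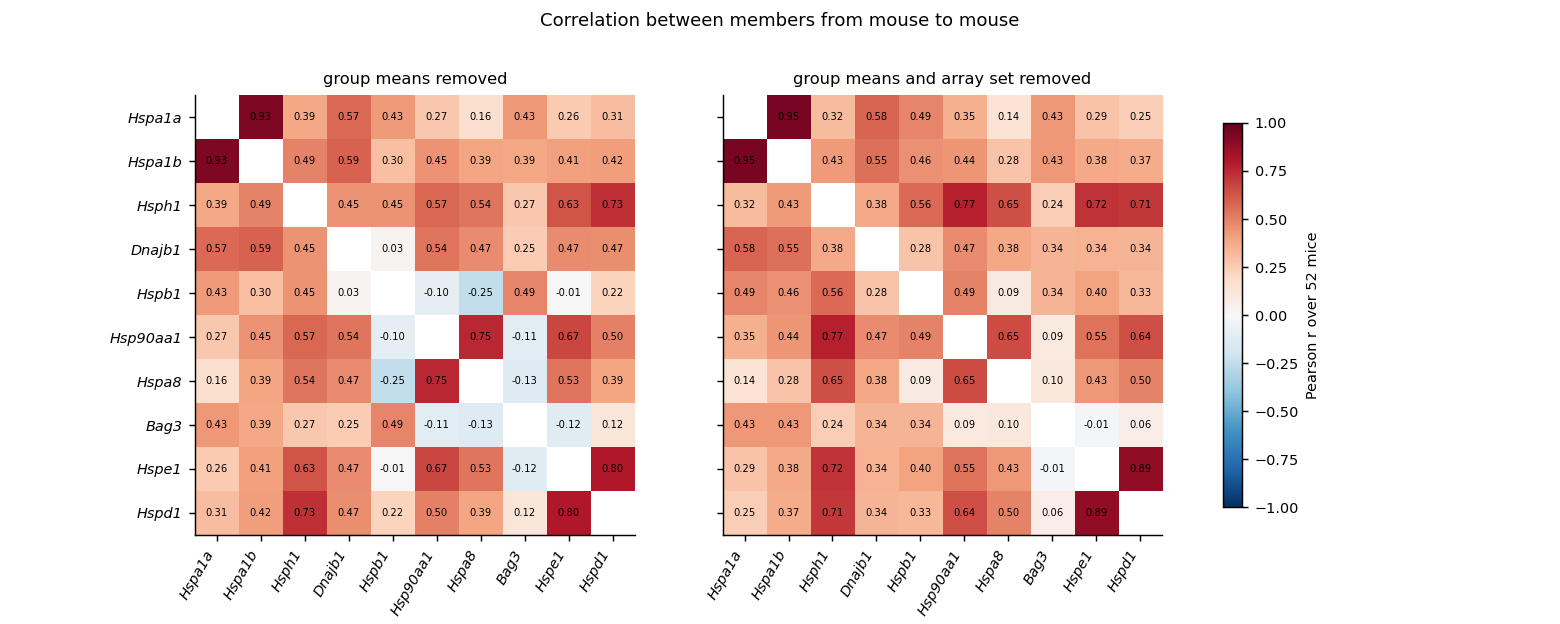
Pearson r between the 10 members over 52 mice (colour and printed value), with group means removed at the left and with group means and array set removed at the right. Hspa1a with Hspa1b (0.93) and Hspd1 with Hspe1 (0.80) are the highest pairs at the left, and pairs of Hspb1 differ most between the panels.

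Among 11208 genes with a mean over 5, the non-member genes most like the mean of Hspa1a, Hspa1b, Hsph1 and Dnajb1 over the 52 arrays were Dnaja1 (r = 0.73), Fosl2 (0.58), Nkiras1 (0.57), P4ha1 (0.55) and Ahsa2 (0.54). Dnaja1 is a J-domain cochaperone of HSP70, Fosl2 an AP-1 transcription factor and P4ha1 a collagen prolyl hydroxylase. Those most like the mean of Hspd1 and Hspe1 were Ahsa2 (0.79), Cacybp (0.77), Ahsa1 (0.75), Stip1 (0.75) and H2-Q10 (0.70). With group means removed, Dnaja1 had r = 0.61 with the first mean and Ahsa2 r = 0.82 with the second. These correlations describe arrays that share array sets and carry no test.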

How the data were processed

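The authors deposited log2 values made by robust multiarray averaging (RMA; no version is given in the sources used here) for 55 arrays and the sources do not say which arrays shared a normalization. The 64 control probe sets were left out, and 45037 were tested. Symbols came from a platform annotation of 2016: 34945 probe sets carry 1 symbol, 932 several and 9160 none. One limma model (limma 3.58.1, R 4.3.3) with 12 group means over 52 arrays gave 18 comparisons, with Benjamini-Hochberg adjustment over all probe sets and a threshold of 0.05. On simulated data with 100 probe sets changed by 1 and 100 by 2 log2 units, the script was tested before use. Permutation tests used scipy 1.17.1. Each group has 3 to 5 mice, which limits the precision of every mean, and microarrays give no read depth. Mice were mapped to groups by label. Replicate letters do not pair mice: same-letter pairs of different groups had a median correlation of 0.015 (206 pairs), other pairs 0.00061. Array set was the raw file name prefix in the labels. The rank product of the study's methods was rewritten with all differences taken as independent, which makes its p-values too small. Members, lists and tests were chosen with earlier results of these data known. All 10 members were named by rule, and other listed genes by smallest adjusted p.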

Additional observations from a re-analysis of the deposited data

Results flagged for a closer look

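Of 100 groups of 4 or 5 mice tested over the 10 members, 3 held a mouse farther from the rest than Dixon's 95% value allows, where chance flags about 1 in 20. Hspa1a was 9.88 in AIN 10 ppb food mouse D, against 6.53 to 7.44 in the other 4 mice. Hspd1 was 10.86 in LRD control mouse A, against 10.25 to 10.30 in the other 3 mice. Hspa8 was 12.82 in dexamethasone-injected mouse B, against 12.42 to 12.52 in the other 4 mice. One value of the arrays left out lay above its controls: Hspa8 was 12.78 on the left-out array of LRD 10 ppb water, against 12.26 to 12.73 in the 4 LRD controls.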

How the results depend on the processing

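In the comparison of both drugs with arsenite alone, the count of 3 members called was 0 with all 55 arrays, 1 (Hspd1) with only the injection groups in the model, 9 by rank product, and 0 to 5 when 1 mouse was left out (0 without arsenite-injected mouse C, 5 without mouse B). With only the injection groups and array set as a block, an alternative chosen after seeing the data, Hspd1 and Bag3 were called. Hspe1 alone was lost without mouse A or E of the mice given both drugs. In this comparison, shares of all probe sets are given above for the rank product and for array set as a block over the 12 groups. The counts of the other fits, here and below, have no share beside them and cannot be set against one. These include the fits that leave out 1 mouse. In every other comparison leaving out 1 mouse gave 0 members called. The rank product called 10 members for arsenite against saline, 6 for dexamethasone against saline, 7 for both drugs against saline, 4 for both drugs against dexamethasone, 5 for saline against AIN control, 5, 4 and 3 for AIN 10 ppb water, 100 ppb water and 10 ppb food against control, 5 for food against water on AIN, and 6, 3 and 4 for LRD 10 ppb water, 100 ppb water and 10 ppb food against control, where limma called 0.

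Restoring the left-out arsenite array turned 16 signs. For arsenite against saline it gave Hsph1 -0.39, Hsp90aa1 -0.71, Hspa8 -1.47, Bag3 -0.46 and Hspe1 -0.55. For both drugs against arsenite it gave Hsp90aa1 0.70, Hspa8 1.34, Bag3 0.49, Hspe1 0.20 and Hspd1 0.83. For the interaction it gave Hsph1 0.0174, Hsp90aa1 0.48, Hspa8 1.31, Bag3 0.27, Hspe1 0.35 and Hspd1 1.01. That array listed members at values down to 3.35. A replicate block by letter kept 3 members called in the comparison of both drugs with arsenite alone and 0 in the others. The letters do not pair mice of different groups. The 28 correlated pairs were 38 with all 55 arrays and 32 with array set as a block. Quantile normalization again, median centring, array weights, the dim filter and the median probe set kept each count of members called within 1.5 times, and under array weights and the dim filter Hspa8 was called too. A group mean of 3 to 5 mice limits the smallest difference that can be called.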
